A study of Mus musculus with 14 samples.

Results

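The replacement histone variants are the histones that a cell makes outside DNA replication and exchanges into chromatin already formed. The 8 genes described here were taken by symbol from the deposited tables: H3f3a and H3f3b (H3.3), H2afz and H2afv (H2A.Z), H2afx (H2A.X), H2afy and H2afy2 (macroH2A1 and macroH2A2) and H1f0 (the linker histone H1.0). In the transcripts assembled for each library, 18711 genes had any value. RNA-seq libraries were made from total RNA of the hippocampus of C57BL6 mice, 30 days old, that were wild type (KMT2D+/+) or heterozygous for a lacZ-neomycin fusion allele of the H3K4 methyltransferase gene Kmt2d (KMT2D+/bGeo). From 2 weeks of age all mice received, by gavage for 2 weeks, either the methylcellulose vehicle or TAK-418, an inhibitor of the demethylase LSD1 (Kdm1a), in that vehicle at 1 mg/kg/day. There were 3 libraries of vehicle-treated wild types, 3 of vehicle-treated mutants, 5 of TAK-418-treated wild types and 3 of TAK-418-treated mutants. The title of the study names a rescue of chromatin in the mutants by the drug, so the comparisons made were genotype under vehicle, drug in mutants, drug in wild types, genotype under TAK-418, and the genotype by drug interaction.

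Canonical histone genes are expressed during S phase and their messages lack a poly(A) tail, whereas most replacement variants come from polyadenylated genes that are transcribed throughout the cell cycle. Neurons do not divide, so H3.3, loaded by the HIRA and ATRX-DAXX chaperones, builds up in their chromatin with age in place of the replication-coupled H3. H2A.Z is loaded by the SRCAP and EP400 complexes and flanks active promoters, H2A.X is phosphorylated next to DNA breaks, macroH2A carries a large macro domain after its histone fold, and H1.0 accumulates in cells that have left the cell cycle.

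Members of a pair were told apart by sequence. H3f3a and H3f3b encode the same protein of 136 residues, with 0 residues differing, yet their 408-base coding sequences differ at 95 bases in 83 codons and are 76.7% identical. The coding exon of 154 bases that both genes share in position is shown because its differences are what lets reads of the 2 genes be told apart. Capitals mark the 42 bases that differ (GRCm38, minus strand, chr1:180810117-180810270 in H3f3a and chr11:116023625-116023778 in H3f3b, wholly coding).
H3f3a coding exon: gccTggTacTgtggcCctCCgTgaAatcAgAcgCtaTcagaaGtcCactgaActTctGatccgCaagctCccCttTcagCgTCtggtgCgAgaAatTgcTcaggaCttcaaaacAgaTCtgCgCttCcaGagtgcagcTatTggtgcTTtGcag
H3f3b coding exon: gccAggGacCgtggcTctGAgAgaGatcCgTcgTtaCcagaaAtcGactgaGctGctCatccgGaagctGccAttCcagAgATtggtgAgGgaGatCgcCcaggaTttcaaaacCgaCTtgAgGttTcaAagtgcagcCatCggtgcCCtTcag
H2afz and H2afv differ at 80 of 384 coding bases (79.2% identical) and at 3 of 128 residues. Among annotated transcripts of other genes, 37 genes held a stretch at least 90% identical to the H3f3a coding sequence over at least 200 bases and 3 held one for H3f3b, and none of them was assigned a value in any library. A copy without a value may still share reads with H3f3a or H3f3b, which was not tested. For H2afx 21 genes held such a stretch, of which 3 had values, summing to at most 38.1 in a library. For H2afz, 6 genes held such a stretch, of which 1, Tmcc1, had a value (mean 26.3), and reads it may share with H2afz cannot be assigned with certainty.

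H2afy yields 2 proteins by the choice between a pair of mutually exclusive coding exons, both on the minus strand of chromosome 13 (GRCm38). The exon of macroH2A1.1, the form whose macro domain binds ADP-ribose metabolites, has 91 bases (chr13:56088252-56088342, in H2afy-202), and that of macroH2A1.2, whose domain does not, has 100 bases (chr13:56089758-56089857, in H2afy-201). They are shown because the share of each isoform was read from them, and over 91 aligned bases they are 57.1% identical.
macroH2A1.1 exon: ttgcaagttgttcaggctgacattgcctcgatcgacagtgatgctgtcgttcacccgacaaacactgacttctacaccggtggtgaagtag
macroH2A1.2 exon: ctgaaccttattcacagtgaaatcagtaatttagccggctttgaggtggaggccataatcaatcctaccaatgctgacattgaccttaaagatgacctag
A coding exon upstream of that pair (chr13:56096124-56096234) was assembled at either 111 or 108 bases. The 3 bases that only the longer form holds, at its 5′ end, are in capitals.
H2afy exon before the pair: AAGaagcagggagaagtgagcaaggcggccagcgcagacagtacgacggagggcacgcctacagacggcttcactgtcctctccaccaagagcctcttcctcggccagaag

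Levels are given as scaled abundance: the sum, over a gene's assembled transcripts, of the per-transcript abundance that the authors' assembler wrote, divided by a library factor of 0.849 to 1.07. The number of reads behind these values is unknown, so the assembled transcripts, 33819 to 48428 per library, are the only measure of depth here, and no counting interval is given. The genes that mark hippocampal neurons (Prox1, Neurod6, Wfs1, Fibcd1, Spink8, Neurod2, Camk2a) summed to between 1464 and 1662, and 1 of the 7, Spink8, was listed at 0 in 1 library. Choroid plexus genes (10 of 10 tested, led by Ttr) summed to 5064 and 6497 in mutant vehicle library 1 and wild-type vehicle library 3 and to between 16.4 and 913 in the other 12, so the limma fits were also run without those 2 libraries, and no member was called in them. In bulk tissue, fewer cells of a type and less RNA per cell cannot be told apart.

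Kmt2d, the targeted gene, was at 13.99 ± 0.234 (SD, n = 3) in vehicle-treated wild types and 11.9 ± 2.14 (n = 3) in vehicle-treated mutants, and at 15.2 ± 2.37 (n = 5) and 12.4 ± 2.73 (n = 3) under TAK-418. Its genotype difference was -0.23 ± 0.17 (log2, standard error) under vehicle and -0.29 ± 0.15 under TAK-418, with limma adjusted p of 0.999 and 0.926, so the genotype labels could not be checked from this gene at the level of a test. Kdm1a, the drug's target, lay between 29.9 and 35.8 in all libraries.

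H3.3 was the most abundant of the replacement variants, and both of its genes contributed. Over the 14 libraries the mean scaled abundance was 292 ± 17.5 (SD) for H3f3a, 174 ± 15.8 for H3f3b, 144 ± 8.28 for H2afz, 57.6 ± 3.06 for H2afy, 28.8 ± 1.94 for H2afv and 7.72 ± 0.926 for H2afy2. H3f3a ranked 203 and H2afy2 ranked 8742 among the 18711 genes. That order held in 14 of 14 libraries for each neighbouring pair, and only the ranges of H3f3b and H2afz overlapped, with a ratio of 1.05 to 1.35. The place of that pair depends on the measure, since in the authors' deposited tables H2afz (FPKM of 106 to 117) stood above H3f3b (94.9 to 102) in every group. The spread between libraries differed by gene: the coefficient of variation was 5.31% for H2afy, 5.73% for H2afz, 5.98% for H3f3a, 6.74% for H2afv, 9.08% for H3f3b and 12.001% for H2afy2, beside a median of 8.38% over genes with a value in every library and a mean of at least 5, so H3f3b and H2afy2 varied more than that median and the other 4 less.

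**Figure D1:**
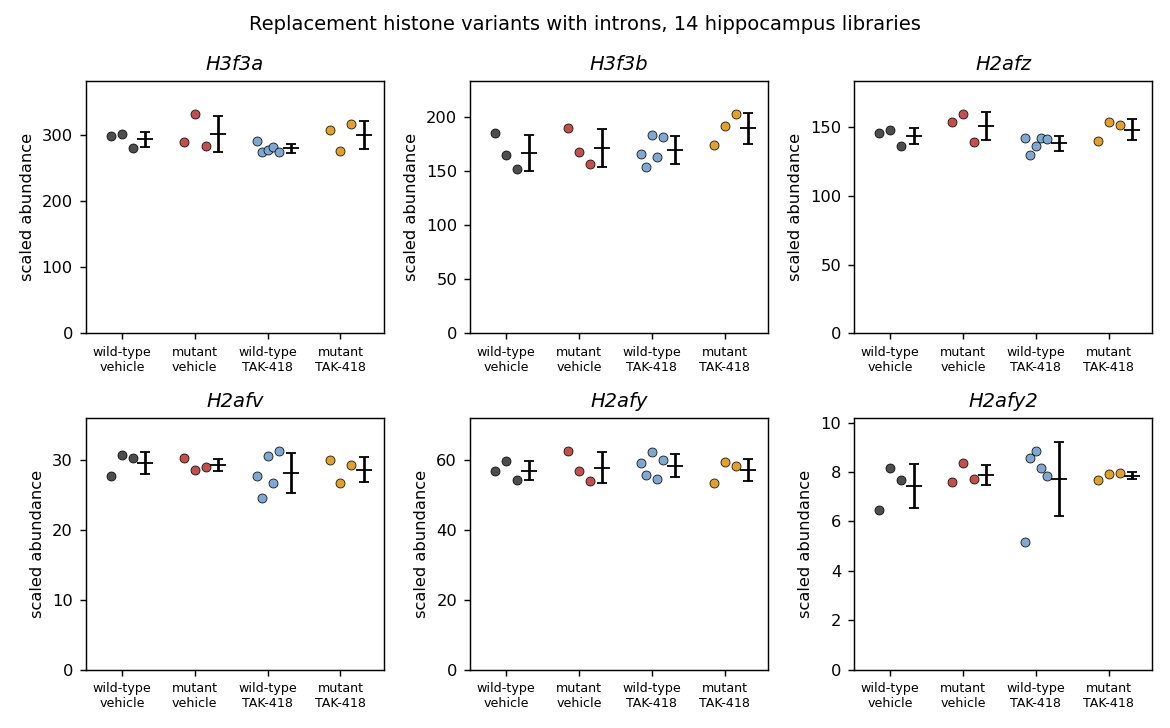
Scaled abundance of the 6 members that have introns, one point per library, with the mean and SD of each group beside it (3 libraries per group, 5 for wild-type TAK-418). Groups overlap for every gene, and 1 wild-type TAK-418 library is low for H2afy2 (5.15).

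H3f3a, on chromosome 1, was assembled in each library as the same transcript of 4 exons, with an extra 5-exon form in mutant TAK-418 library 1 alone. Its scaled abundance was 299, 302 and 281 in vehicle-treated wild types and 290.0, 332 and 283 in vehicle-treated mutants. Under TAK-418 it was 291, 275, 278, 282 and 275 in wild types and 308, 276 and 317 in mutants. The 5 treated wild types were the tightest group, and every other group, vehicle-treated wild types included, overlapped them and reached higher. The largest of its 4 differences was 0.10 ± 0.06 (log2, standard error) for genotype under TAK-418 (limma adjusted p = 0.926), and the 95% intervals of all 4 lay between 0.871- and 1.17-fold.

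H3f3b, the second H3.3 gene, on chromosome 11, had 1 spliced form in all 14 libraries. Its scaled abundance was 185, 164 and 152 in vehicle-treated wild types and 190.2, 167 and 156 in vehicle-treated mutants. In TAK-418-treated wild types it was 166, 154, 184, 163 and 182, and in treated mutants 174, 192 and 203. Treated mutants held the highest value and the highest group mean, 189.6 ± 14.7 (SD, n = 3) against 171 ± 17.3 (n = 3) in vehicle-treated mutants, but the groups overlapped. The drug difference in mutants was 0.15 ± 0.10 (log2; limma adjusted p = 1) and the genotype difference under TAK-418 was 0.16 ± 0.09 (adjusted p = 0.926). The interaction for H3f3b was 0.13 ± 0.13 (limma adjusted p = 0.977), and 0.27 without the 2 libraries high in choroid plexus genes.

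The H3f3b value moved with the 3′ end that had been assembled. In 6 libraries the transcript was 848 to 924 bases long and ended between positions 116023074 and 116023081 of chromosome 11, and in the other 8 it was 1206 to 1309 bases long and ended between 116022620 and 116022723. Both ends lie inside the 3′ UTR of the annotated transcript H3f3b-201, which runs on to 116021961. Libraries with the shorter form had a scaled abundance of 182 to 203 and those with the longer form one of 152 to 174, with no overlap. The shorter form was assembled in 1 of 3 vehicle-treated wild types, 1 of 3 vehicle-treated mutants, 2 of 5 treated wild types and 2 of 3 treated mutants. Among libraries with the longer form, the means were 158 (n = 2), 162 (n = 2), 161 (n = 3) and 174 (n = 1) in that order of groups, and among those with the shorter form 185 (n = 1), 190.2 (n = 1), 183 (n = 2) and 197 (n = 2). When abundance was multiplied by transcript length, an alternative added after seeing the data, the drug difference in mutants was -0.03 in place of 0.15. On that scale the forms separated again, in the opposite order, at 154 to 174 for the shorter and 189 to 212 for the longer. Both differences were thus taken over values that separate by the assembled end. Without the 2 libraries high in choroid plexus genes, 1 of which is the vehicle-treated mutant with the shorter form, the unweighted drug difference in mutants was 0.22 ± 0.09 (limma adjusted p = 1).

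**Figure D2:**
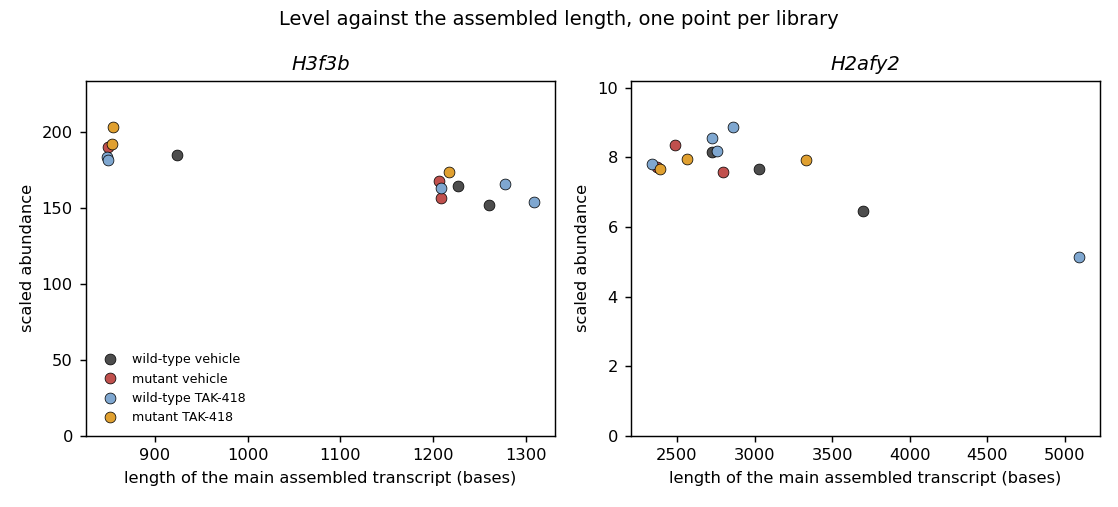
Scaled abundance of H3f3b and H2afy2 against the length in bases of the main assembled transcript, one point per library, coloured by group. For H3f3b the 6 libraries with transcripts of 848 to 924 bases all lie above the 8 with 1206 to 1309 bases, and for H2afy2 the longest transcript (5091 bases) has the lowest value.

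H2afz, the main H2A.Z gene, on chromosome 3, gave scaled abundances of 146, 148 and 137 in vehicle-treated wild types and 154, 159.9 and 139.55 in vehicle-treated mutants. Under TAK-418 it was 142, 130.01, 136, 142 and 141 in wild types and 139.9, 154 and 152 in mutants. The mutant means, 151 ± 10.5 (SD, n = 3) under vehicle and 149 ± 7.57 (n = 3) under TAK-418, stood above the wild-type means of 144 ± 6.12 (n = 3) and 138 ± 5.26 (n = 5), with overlap in both cases. The genotype difference was 0.07 ± 0.06 under vehicle (limma adjusted p = 0.999) and 0.10 ± 0.05 under TAK-418 (adjusted p = 0.926). The latter had the smallest unadjusted p of any member in any comparison. Without the 2 libraries high in choroid plexus genes the H2afz differences were 0.020 under vehicle and 0.10 under TAK-418. A second form with 4 exons was assembled in 9 libraries at an abundance of 7.78 to 12.99, beside 128 to 155 for the main form.

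H2afv, the second H2A.Z gene, on chromosome 11, lay between 24.5 and 31.3 in all 14 libraries, and both extremes were treated wild types. A form that lacks 1 internal exon was assembled in 9 libraries at 1.18 to 4.26, beside 22.9 to 32.1 for the full form. Its 4 differences ran from -0.07 to 0.03 (log2), with 95% intervals between 0.850- and 1.14-fold.

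H2afy, the macroH2A1 gene, on chromosome 13, was the least variable member: 53.4 to 62.6 over all libraries, with group means of 56.8 ± 2.71 (SD, n = 3), 57.8 ± 4.47 (n = 3), 58.4 ± 3.20 (n = 5) and 57.0 ± 3.19 (n = 3) in vehicle-treated wild types, vehicle-treated mutants, treated wild types and treated mutants. Its 4 differences ran from -0.03 to 0.04 (log2), and the 95% intervals lay between 0.891- and 1.13-fold.

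H2afy2, the macroH2A2 gene, on chromosome 10, was at 6.45, 8.16 and 7.66 in vehicle-treated wild types and 7.58, 8.35 and 7.72 in vehicle-treated mutants. Under TAK-418 it was 5.15, 8.55, 8.86, 8.17 and 7.82 in wild types and 7.67, 7.92 and 7.94 in mutants. The lowest value, in treated wild-type library 1, came with the longest assembled transcript, 5091 bases, and the next lowest, in vehicle-treated wild-type library 1, with 3697 bases, whereas the other 12 had 2339 to 3334 bases. Its 95% intervals were the widest, 0.792- to 1.33-fold.

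None of the 8 members passed an adjusted p of 0.05 in limma in any of the 5 comparisons, and few genes of any kind did. H1f0 and H2afx add little to that count, since their levels could not be followed from library to library. For H1f0 the standard errors were 1.48 to 2.22 (log2). Of 16568 genes tested, the share called was 0% for genotype under vehicle, 0.00604% for drug in mutants, 0.00604% for drug in wild types, 0.0121% for genotype under TAK-418 and 0.00604% for the interaction. At an unadjusted p of 0.05 none of the 6 members with introns passed either, beside 5.45%, 4.39%, 8.44%, 4.93% and 4.44% of all genes in the same order. Under the other settings and with single libraries left out, 6 of 774 values of these members had an unadjusted p under 0.05 and none an adjusted one. Those values are repeated fits of the same 30 differences and not independent. In the same fits 449 to 1581 of all genes had an unadjusted p under 0.05. The median difference of the 6 members with introns was 0.04 for genotype under vehicle, -0.01 for drug in mutants, -0.02 for drug in wild types and 0.07 for genotype under TAK-418, beside 0.00 for all genes in each. Over the 6 members and 4 comparisons between groups, the 95% intervals ran from -0.34 to 0.41 (log2), and both ends belong to H2afy2. For the other 5 the range was narrower, from -0.17 to 0.17 for H2afy to -0.18 to 0.36 for H3f3b.

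**Figure D3:**
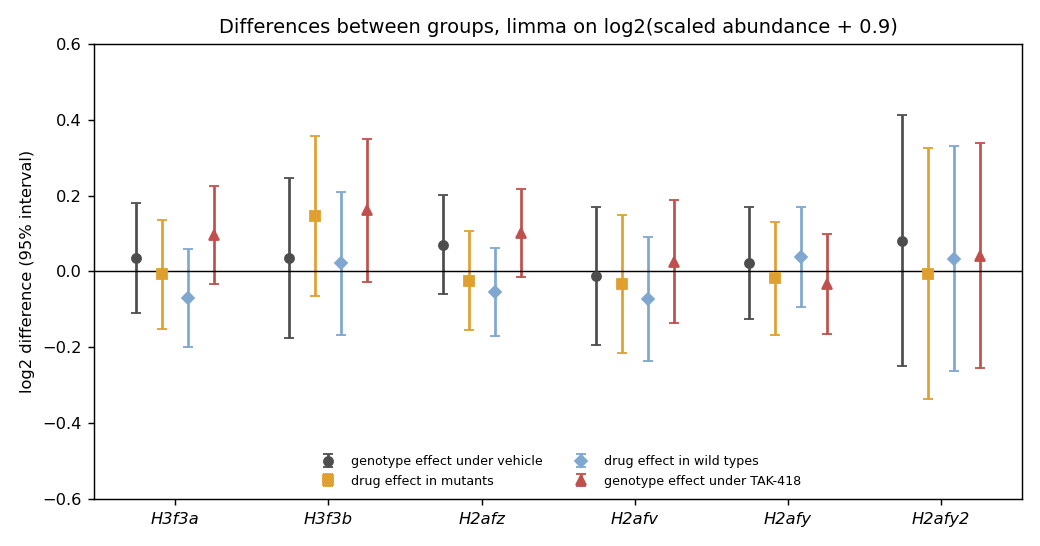
Log2 differences of the 6 members with introns in the 4 comparisons between groups, with 95% intervals from limma. Every interval includes 0, and those of H2afy2 are the widest (-0.34 to 0.41 over the 4).

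The authors' deposited tables give an FPKM per group for each locus, which differs slightly between the tables that share a group, and in them no member passed either. The values that follow are from the table of mutant against wild type under vehicle for vehicle-treated groups, and from that under TAK-418 for treated ones. In those of the authors' deposited tables H3f3a was at 157 in vehicle-treated wild types, 164 in vehicle-treated mutants, 152 in treated wild types and 159.8 in treated mutants. H3f3b was at 95.5, 95.9, 95.6 and 101, and H2afz at 114, 116, 107 and 116, in the authors' deposited tables and the same order of groups. Over all of the authors' deposited tables, including those that compare groups of unlike treatment, H2afv lay between 18.8 and 21.6 and H2afy between 42.0 and 45.1. The symbol H2afy2 stands there at 2 loci with the same bounds, 1 with an FPKM of 6.14 and 6.28 in vehicle-treated wild types and mutants and 1 with 3.11 and 3.02. The smallest q of a member locus over all of the authors' deposited tables was 0.695, for H2afz, and the smallest unadjusted p was 0.133. The share of tested loci with a q under 0.05 there was 0.224% for mutant against wild type under vehicle, 0.218% under TAK-418, 0.324% for treated mutants against vehicle-treated wild types and 0.611% for vehicle-treated mutants against treated wild types.

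The balance within each pair was read as the share of 1 gene. H3f3b made up 36.2% ± 1.80 (SD, n = 3) of H3.3 messages in vehicle-treated wild types, 36.2% ± 3.11 (n = 3) in vehicle-treated mutants, 37.7% ± 1.94 (n = 5) in treated wild types and 38.7% ± 2.46 (n = 3) in treated mutants. This share also separated by the assembled 3′ end of H3f3b. It was 38.2% to 41.0% in the 6 libraries with the shorter form and 33.5% to 36.6% in the 8 with the longer form. H2afz made up 81.7% to 85.3% of H2A.Z messages in the 14 libraries, with group means of 83.0% to 83.8%. H2afy2 made up 7.997% to 13.3% of macroH2A messages, with group means of 11.6% to 12.1%, and its low extreme was treated wild-type library 1. No comparison of these shares came below an exact two-sided permutation p of 0.3, and all 16 tests of shares had an adjusted p of 1. With 3 libraries against 3 the smallest p the design allows is 0.1, and with 3 against 5 it is 0.0179.

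The macroH2A1.1 exon was the minor choice in every library, with a share that ranged from 8.97% to 35.9% and a median of 13.3%. This share was taken over the 9-exon H2afy transcripts only, without the forms of fewer exons. It was 12.9%, 35.9% and 15.04% in vehicle-treated wild types and 20.3%, 15.2% and 13.8% in vehicle-treated mutants. Under TAK-418 it was 11.03%, 33.0%, 15.7%, 8.97% and 11% in wild types and 9.99%, 12.3% and 10.6% in mutants. In both wild-type groups 1 library, each time number 2, stood at more than 30%, and the remaining 12 libraries lay at 20.3% or below. In those 2 libraries the exon stood in 2 of the 9-exon transcripts (abundances of 12.6 and 7.84 under vehicle, 9.18 and 8.90 under TAK-418). In each of the remaining 12 it stood in 1. Whether the higher shares came from the assembly was not tested. In mutants the 3 treated libraries all lay below the 3 vehicle-treated ones, with means of 10.95% ± 1.1985 (SD, n = 3) and 16.4% ± 3.44 (n = 3), a difference of -5.50 percentage points. Its exact permutation p was 0.1, the smallest 3 against 3 can give, and its adjusted p was 1. Without mutant vehicle library 1, which was high in choroid plexus genes, the macroH2A1.1 difference was -3.55 percentage points. It also depended on how the share was taken: from the most abundant transcript with each exon it was -6.26 points with an exact permutation p of 0.2, and from the number of transcripts with each exon it was 0.

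The 3 extra bases of the upstream exon were present in 44.2% of H2afy messages on average, here over all assembled forms, and the libraries fell into separate ranges. The share was 23.7% to 33.9% in 6 libraries and 52.5% to 63.0% in the other 8, and both ranges held libraries of all 4 groups. These shares come from how the assembler divided reads among transcripts that differ by 3 bases, and no test between groups was made on them.

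**Figure D4:**
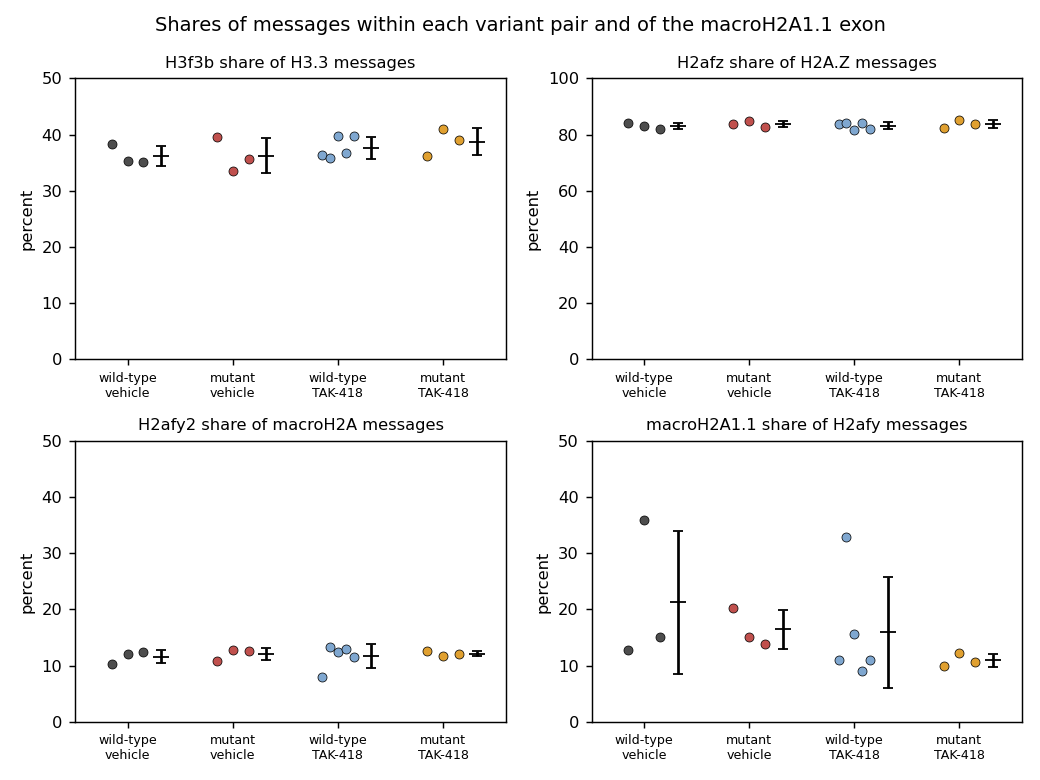
Share in percent of H3f3b in H3.3 messages, of H2afz in H2A.Z messages, of H2afy2 in macroH2A messages and of the macroH2A1.1 exon in 9-exon H2afy transcripts, one point per library with the mean and SD of each group. The macroH2A1.1 share reaches 35.9% and 33.0% in 1 library of each wild-type group, where 2 assembled transcripts held the exon, and is 20.3% or lower elsewhere.

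H1f0 and H2afx have no introns, and their levels could not be followed from library to library. H1f0, on chromosome 15, was listed at an abundance of 1.79 to 2.37 in 9 libraries and at 43.7 to 64.3 in the other 5, while the authors' deposited tables put it at an FPKM of 46.7 to 51.2 in every group. Those 5 were wild-type vehicle library 3, mutant vehicle libraries 1 and 3 and treated wild-type libraries 1 and 3, the only ones in which a spliced transcript, itself at 0.0329 or less, was assembled over the gene. Other genes without introns behaved alike: over the vehicle-treated libraries and at a deposited FPKM of at least 10, abundance divided by FPKM had a median of 0.0420 for 52 genes assembled alone and 1.05 for 42 genes overlapped by a spliced transcript, beside 1.23 for 5426 genes with introns. A gene can enter both counts in different libraries.

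**Figure D5:**
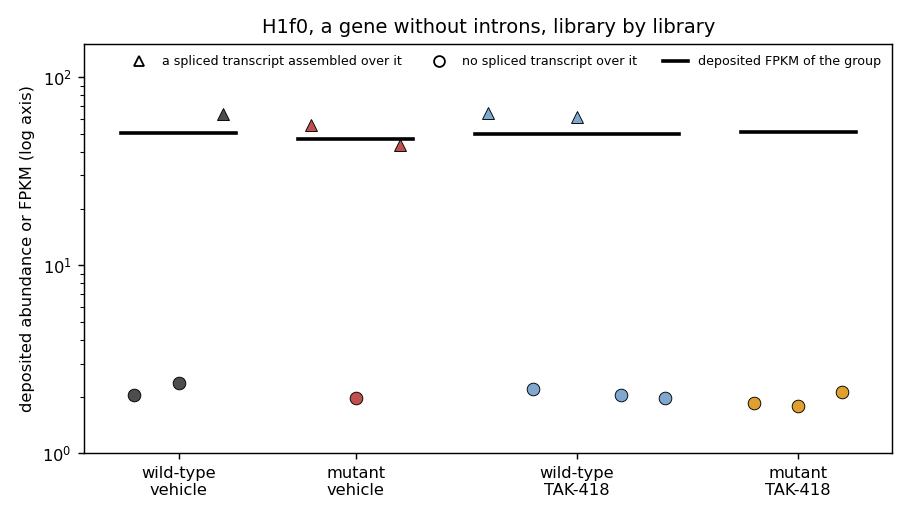
Deposited abundance of H1f0 in each library (log axis), with triangles where a spliced transcript was assembled over the gene, circles where none was, and bars for the group FPKM of the authors' deposited tables. The 5 triangles lie at 43.7 to 64.3 and the 9 circles at 1.79 to 2.37, while the bars lie between 46.7 and 51.2.

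H2afx, on chromosome 9, was listed at 0.386 to 0.813 in 7 libraries and at 0 in the other 7, and in treated wild-type library 1 spliced transcripts of the neighbouring gene Dpagt1 ran over it. The authors' deposited tables join both genes in 1 locus, at an FPKM of 25.6 to 27.1 in all groups, with q of at least 0.960. For H1f0 the smallest q in the authors' deposited tables was 0.764, and the group values for genotype under vehicle were 50.7 in wild types and 46.7 in mutants. Other variant histone genes had few values: of the 9 listed (Cenpa, H2afj, H1fx, H2afb1, H2afb2, H2afb3, H1foo, H1fnt, Hils1), 7 were at 0 in all libraries, Cenpa, the centromeric H3, had a value in 14 and H2afj in 6. Of those 7, 6 have no introns, as H2afx has none, so their 0 does not give their level.

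The genes that load, remove and read these variants were described as 1 list of 43, all of which were tested. None passed an adjusted p of 0.05 in limma in any comparison. At an unadjusted p of 0.05, 0 passed for genotype under vehicle, for genotype under TAK-418 and for the interaction, 1 was higher and 1 lower for drug in mutants, and 1 was higher and 2 lower for drug in wild types. That is 4.65% of the list for drug in mutants and 6.98% for drug in wild types, close to the 4.39% and 8.44% of all genes, so the genes named next are descriptions only. The list's median differences were 0.03, 0.00, 0.00 and 0.02 (log2) for genotype under vehicle, drug in mutants, drug in wild types and genotype under TAK-418, beside 0.00 for all genes.

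Anp32e, the chaperone that removes H2A.Z from nucleosomes, was the lower gene for drug in mutants. It stood at 41.0 ± 0.195 (SD, n = 3) in vehicle-treated mutants and 37.8 ± 0.906 (n = 3) in treated ones, a difference of -0.12 ± 0.04 (log2; limma adjusted p = 0.9002). The higher one was Ep400, the motor of an H2A.Z-loading complex, at 12.97 ± 1.35 (n = 3) and 15.6 ± 0.899 (n = 3), a difference of 0.26 ± 0.12 (limma adjusted p = 1). For drug in wild types Ruvbl2, an ATPase shared by those complexes, was at 17.6 ± 0.290 (n = 3) under vehicle and 19.4 ± 1.11 (n = 5) under TAK-418, a difference of 0.13 ± 0.05 (limma adjusted p = 0.483). Hells and Mbnl1, named here after their values were seen, were the 2 lower genes, at -0.56 ± 0.22 (adjusted p = 0.515) and -0.49 ± 0.21 (adjusted p = 0.574) in limma. The other smallest p-values were Parp1 for genotype under vehicle (0.22 ± 0.10, limma adjusted p = 0.910), Ssrp1 for genotype under TAK-418 (0.15 ± 0.07, adjusted p = 0.926) and Nap1l1 for the interaction (0.12 ± 0.06, adjusted p = 0.977). Parp1 was at 52.8, 53.9 and 75.1 in vehicle-treated mutants and at 49.6 to 53.3 in vehicle-treated wild types, so its difference rests mostly on 1 library.

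Chaperones of H3.3 had group means of 16.8 to 17.7 for Hira, 28.9 to 30.6 for Atrx and 11.4 to 12.4 for Daxx. Srcap, the motor of the other H2A.Z-loading complex, had group means of 20.4 to 23.0 and its partner Vps72 19.5 to 20.6. Of the splicing regulators known to act on the H2afy exon pair, Mbnl1 is given above, and the others had group means of 298 to 336 (Ddx5), 118 to 127 (Ddx17) and 72.6 to 85.1 (Qk). Hira, Atrx, Daxx, Srcap, Vps72, Ddx5, Ddx17 and Qk had no limma p under 0.05 in any comparison.

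Across libraries, the members' levels were set beside the scores of 4 marker lists (dividing cells, newborn granule neurons, choroid plexus and myelin), each the mean of log2 values centred by gene. Of the 24 pairs of a member with introns and a list, 0 passed an adjusted p of 0.05. Those with the largest r were H2afy with choroid plexus genes over the 12 libraries left without the 2 highest in these genes (Pearson r = -0.60, permutation p = 0.0372, adjusted p = 0.418; Spearman rho = -0.35, permutation p = 0.269, adjusted p = 0.762), H2afy2 with dividing cells (r = 0.55, permutation p = 0.0522, adjusted p = 0.418; rho = 0.11, permutation p = 0.715, adjusted p = 0.903) and H2afy2 with myelin (r = 0.54, permutation p = 0.0465, adjusted p = 0.418; rho = 0.60, permutation p = 0.0273, adjusted p = 0.327). Without the 2 libraries farthest from the median of the score, these r were 0.29, 0.26 and 0.73, so the first 2 rest on those libraries. Among the 12 libraries of the choroid plexus pair, mutant vehicle library 3 and mutant TAK-418 library 1 still stood apart. Their scores were 0.84 and 0.45, and the rest lay between -0.91 and -0.57. By rank, H2afy2 with newborn granule neurons was highest (rho = 0.63, permutation p = 0.0184, adjusted p = 0.327).

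Among the members themselves, the highest correlations over the 14 libraries were 0.61 between H3f3a and H2afz, 0.60 between H3f3b and H2afy and 0.55 between H3f3b and H2afz, while paralogs correlated at 0.20 (H3f3a with H3f3b), 0.17 (H2afz with H2afv) and -0.02 (H2afy with H2afy2). These are descriptions over libraries that share their scaling factors. Of 13270 genes with a value in all libraries, those closest to H3f3a were Sumo2 and Umad1 (r = 0.87 and 0.87), to H3f3b Ccnc and Zfp647 (0.86 and 0.85) and to H2afz Coasy and Selenos (0.92 and 0.92). For H2afv they were Zfp454 and Tm4sf1 (r = 0.86 and 0.80), for H2afy Nbdy and Map1lc3a (0.87 and 0.84) and for H2afy2 Kdelr1 and Zfp282 (0.92 and 0.92). These genes were picked as the highest of 13270 correlations over 14 libraries. How high an r unrelated genes would reach by such a choice was not tested.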

How the data were processed

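The submitters' processing notes name FastQC, TopHat2 2.1.0 and the build mm10. Transcripts were assembled with CLASS 2.1.7, per the file headers. Each deposited assembly gives 1 abundance per transcript, a score whose scale is not given in the sources used here. The authors' deposited tables hold an FPKM per group and, for each locus, a log2 fold change with its p-value and q-value. In their value columns, deviations over 7110 genes correlated best with the libraries of the group in the table's name.

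Transcripts were assigned to GENCODE M21 genes by a shared intron, or, if unspliced, by exon overlap of at least 50%, which assigned 78.2% to 90.2% of them. Abundances were summed per gene and scaled by the median ratio to the geometric mean. limma 3.58.1 (R 4.3.3) was fitted to log2(scaled abundance + 0.9) over 14 libraries and 16568 genes with a value in at least 3, with 4 group means, an intensity trend and Benjamini-Hochberg adjustment. Differences on this scale understate changes of low genes. The step was tested on simulated data. Shares were compared by exact permutation, and correlations by 100000 permutations in Python 3.11.15.

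Libraries are named by group and an arbitrary number. The labels do not state that each came from its own animal, so p-values measure the spread between libraries. The labels name a pair of library kits without saying which library had which, and neither is stated to mark strand, so reads from genes on the opposite strand that overlap H3f3a, H2afy, H2afy2, H2afx or H1f0 cannot be told apart from theirs. The members and lists were chosen with earlier results of these data known. Named genes were the members, Kmt2d, Kdm1a, 10 partner genes, partner genes past the threshold or with the smallest p of a comparison, and the 2 genes closest to each member. H1f0 and H2afx were left out of correlations, which leaves 24 of 32 planned pairs.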

Additional observations from a re-analysis of the deposited data

Results flagged for a closer look

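Among the 13 sets of values examined in the 5 treated wild types, 2 held a library whose gap to the nearest of the others exceeded 0.71 of the whole range, and chance gives about 1 such set in 20. H2afy2 was at a scaled abundance of 5.15 in treated wild-type library 1, with 7.82 the next lowest. The macroH2A1.1 share of 9-exon H2afy transcripts was 33.0% in treated wild-type library 2, where 2 such transcripts held the exon, with 15.7% the next highest.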

How the results depend on the processing

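Under 26 other settings for each comparison between groups and 25 for the interaction, no member that could be tested was called, and the smallest adjusted p of a member with introns was 0.598. H1f0 and H2afx are not in the fit of multi-exon transcripts, nor H2afx in that of genes with a value in all libraries. Unadjusted p fell under 0.05 in 6 of 774 values, which are repeated fits of 30 differences, beside 449 to 1581 of all genes per fit. The smallest was 0.0270 in limma for H3f3a (0.16 for genotype under TAK-418, without treated mutant library 2). Leaving out 1 library at a time, the H2afz difference ran from 0.03 to 0.13 for genotype under vehicle and 0.07 to 0.14 under TAK-418, the H3f3b difference from 0.08 to 0.22 for drug in mutants and 0.05 to 0.20 for the interaction, and the H3f3a difference from -0.10 to -0.05 for drug in wild types. Uncalled signs were not stable: 25 of 30 member differences changed sign under at least 1 setting, in 71 of 774 values. Unscaled, the H2afz genotype difference under vehicle was -0.019. With abundance times length, the H3f3b drug difference in mutants was -0.034. The number of genes called among all tested ran over the settings from 0 to 11 (genotype under vehicle), 18 (drug in mutants), 7 (drug in wild types), 7 (genotype under TAK-418) and 5 (interaction). The deposited tables gave 0 member loci at q under 0.01 and at p under 0.05. For all tested loci the counts under those limits were 0 and 1423 of 32966 for mutant against wild type under vehicle. Under TAK-418 they were 0 and 1337 of 32634. For treated mutants against vehicle-treated wild types they were 0 and 1527 of 33991. For vehicle-treated mutants against treated wild types they were 162 and 2090 of 32236. No pair with a marker list passed under another setting, where the smallest adjusted p of the 3 pairs named above was 0.0612, and with the highest transcript only the r of H2afy with choroid plexus genes was 0.32.

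No share comparison passed under any setting. With abundance times length, the H3f3b share differed by -1.07 percentage points for genotype under vehicle and -1.11 under TAK-418, and the H2afy2 share by -1.32 for genotype under vehicle and -0.81 for drug in wild types. With the highest transcript only, the H2afz share differed by -0.17 for genotype under vehicle, -0.70 for drug in mutants and -1.05 for drug in wild types, and the H2afy2 share by -0.34 for drug in mutants, -0.13 for drug in wild types and -0.17 for genotype under TAK-418. The cause was not tested. Leaving out 1 library at a time, the H3f3b share differed by -1.65 to 1.41 for genotype under vehicle and -0.069 to 2.38 under TAK-418. The H2afz share differed by -0.64 to 0.81 for drug in mutants, -0.34 to 0.74 for drug in wild types and -0.016 to 1.43 for genotype under TAK-418. The H2afy2 share differed by -0.18 to 1.12 for genotype under vehicle, -0.56 to 0.44 for drug in mutants, -0.56 to 1.03 for drug in wild types and -0.47 to 0.86 for genotype under TAK-418. The macroH2A1.1 share differed by -9.03 to 2.504 for genotype under vehicle, where the positive end is without wild-type vehicle library 2, and by -9.60 to 1.99 for drug in wild types, where it is also without that library. For drug in mutants it ran from -6.80 to -3.55, and was -6.26 with the most abundant transcript with each exon and 0 with the number of transcripts.

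No paired analysis was possible because the labels give no replicate numbers. The depth behind the abundances is unknown, differences inside a gene's own 95% interval were not resolved, and levels of H1f0 and H2afx per library were not measurable here.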
